A study of Saccharomyces cerevisiae with 32 samples.

Results

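The 41 genes described here encode the cytosolic large-subunit (60S) ribosomal proteins RPL1 to RPL22 of Saccharomyces cerevisiae. They were chosen by name, as the 19 pairs of A and B copies plus the single-copy genes RPL3, RPL5 and RPL10, so that they stand for 22 proteins. They are 41 of the 6696 open reading frames counted, and each was found by its systematic name. The cells were 8 natural isolates, labelled CQC, CPI, CMP, BTT, BPL, BED, BAN and AMH, each wild type and grown in SC (synthetic complete) medium. Each isolate has 2 ribosome profiling libraries, which sequence the stretches of mRNA protected by ribosomes (footprints), and 2 RNA-seq libraries (mRNA), which makes 32 libraries. No isolate is a control, so each one was compared with the mean of the other 7. The 8 comparisons therefore share libraries and are not independent. The labels name no genetic change, treatment or time, and do not say whether the 2 libraries of an isolate came from separate cultures. The p-values therefore measure the spread between these libraries, which may be technical.

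Large-subunit proteins are made in a fixed ratio, a single copy of each per subunit, and fold onto the ribosomal RNA in the nucleolus, nucleus and cytoplasm. Most of them are encoded by a pair of gene copies left by an ancient duplication of the yeast genome, and the proteins of a pair are nearly or fully identical. Their genes are transcribed together in growing cells through Rap1, Fhl1, Ifh1 and Sfp1, and they hold many of the introns of this intron-poor genome. Among the members, RPL2, RPL3 and RPL4 lie close to the catalytic centre or the exit tunnel, and RPL17 lines the tunnel. RPL5 and RPL11 bind the 5S ribosomal RNA, RPL1 forms the movable L1 stalk, RPL12 sits at the base of the stalk that recruits elongation factors, and RPL10 joins the subunit late, in the cytoplasm.

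Footprint libraries held between 27621 and 4391002 counted reads, and mRNA libraries between 3703931 and 11570247. The shallowest footprint libraries were those of BAN, with 63336 and 27621 reads, and of CMP, with 145164 and 99809 reads. All 41 members passed the filter on low counts in footprints, in mRNA and in both together. The lowest count of a member was 0 reads in footprints (RPL22B, CQC replicate 1) and 192 reads in mRNA (RPL22B, CQC replicate 2). Libraries of 1 isolate differed by more than sampling noise, with chi-square per degree of freedom between 2.14 and 31.4. Over the members, the median gap between the mRNA libraries of BAN was 0.56 on the log2 scale, the widest of the 16 such gaps.

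Together the 41 genes took a large and variable part of the reads. AMH gave them the highest share and CQC the lowest, in footprints and in mRNA. The summed share of footprints was 5.44% and 6.01% for AMH, 3.54% and 3.66% for BAN, 4.73% and 4.99% for BED, 3.04% and 2.84% for BPL, 3.65% and 3.37% for BTT, 3.73% and 3.36% for CMP, 3.06% and 3.67% for CPI, and 1.58% and 1.45% for CQC. The summed share of mRNA reads was 4.82% and 5.62% for AMH, 1.96% and 1.40% for BAN, 3.87% and 4% for BED, 1.92% and 1.72% for BPL, 2.42% and 2.34% for BTT, 2.19% and 2.24% for CMP, 1.99% and 2.28% for CPI, and 0.782% and 0.766% for CQC. AMH, then BED, stood above the other isolates in both assays and CQC stood below them, with no overlap of libraries. BAN, BTT, CMP and CPI overlapped in footprints. The highest isolate mean exceeded the lowest by 3.79-fold in footprints and by 6.74-fold in mRNA. The share of footprints divided by the share of mRNA was smallest in AMH, at 1.10, and largest in BAN, at 2.14, with CQC at 1.95. This ratio uses library totals, and scaling by totals moved the footprint-to-mRNA contrast of every gene in BAN by 0.64 on the log2 scale. In the edgeR fit used below, which does not scale by totals alone, the members' median contrast was -0.03 in BAN. There it was lowest in AMH, at -0.38, and highest in BPL, at 0.38. For comparison, the summed share spanned 4.83-fold in footprints and 6.75-fold in mRNA over the other 40 large-subunit genes, and 4.81-fold and 7.04-fold over 57 genes of the small (40S) subunit. These values are shares of a library, so fewer transcripts of these genes per cell and more of all others cannot be told apart.

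**Figure D1:**
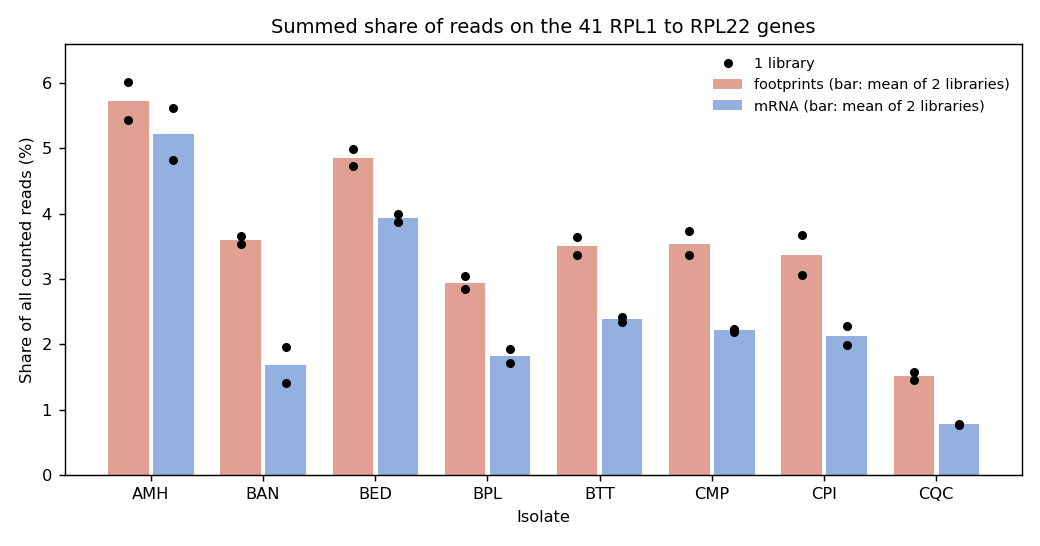
Share of all counted reads (%, vertical axis) that fell on the 41 genes in each isolate (horizontal axis), footprints on the left of each pair of bars and mRNA on the right; bars are means of 2 libraries and points are libraries. AMH is highest, at 5.72% of footprints and 5.22% of mRNA reads, and CQC lowest, at 1.51% and 0.774%.

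Each member differed among the isolates in both assays. In mRNA, 41 of the 41 members differed among the 8 isolates (edgeR quasi-likelihood F-test, adjusted p at most 1.95e-05), where 95.7% of the 6269 genes tested also did. In footprints, 41 of the 41 differed (adjusted p at most 0.00173), against 73.1% of the 5347 genes tested. With the reads of both copies summed, 22 of the 22 proteins differed in mRNA and in footprints, against 95.7% and 73.1% of the features tested. By reads scaled to library totals, AMH held the highest mean level of 40 members in footprints and of 36 in mRNA. CQC held the lowest of 40 members in each. The exceptions at the low end were RPL9B, lowest in CPI in footprints and in BPL in mRNA. In the edgeR fit, scaled otherwise, RPL9B footprints were lowest in BAN, and RPL8A and RPL18B mRNA were also lowest in BPL. AMH was highest there in mRNA for all members but RPL15B and RPL22B. From the highest to the lowest isolate, by library totals, a member spanned a median of 4.39-fold in footprints and 7.30-fold in mRNA.

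In AMH, 40 members rose in footprints relative to the mean of the other 7 isolates, with a median log2 fold change of 1.13, where 19.9% of all genes tested were higher. In AMH mRNA, 41 members rose, with a median of 1.43, against 33.4% of all genes. The member that did not pass in AMH footprints was RPL3, whose log2 fold change was 0.11 ± 0.13 (SE). BED was the second isolate with a broad rise. Its footprints rose for 41 members (median 0.83, against 20.8% of all genes) and its mRNA for 39 (median 0.86, against 32.8%), with RPL9B and RPL22B at 0.11 ± 0.10 and 0.22 ± 0.14 in mRNA. In CQC, 40 members fell in footprints (median -1.55, against 23.3% of all genes) and 40 in mRNA (median -1.68, against 37.2%). RPL9B was the member not called in CQC in both assays, at -0.33 ± 0.16 in footprints and -0.03 ± 0.10 in mRNA. In AMH, A copies, B copies and single-copy genes had 1.14, 1.13 and 0.98 in footprints and 1.46, 1.51 and 1.33 in mRNA. In CQC they had -1.55, -1.68 and -1.21 in footprints and -1.72, -1.68 and -1.55 in mRNA. The 24 members with an intron had a median of -1.80 in CQC footprints and -1.86 in CQC mRNA, where the 17 without had -1.20 and -1.55. In AMH those with an intron had 1.15 in footprints and 1.57 in mRNA, and those without 0.997 and 1.41. The medians in BPL mRNA were -0.52 with an intron and -0.57 without. The single-copy genes and RPL9B are among the 17 without, so this split overlaps that by copy. The median over all genes tested lay between -0.08 and 0.10 in the 8 contrasts of footprints and between -0.02 and 0.07 in those of mRNA.

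In BPL, more members were called in mRNA than in footprints. In BPL footprints, 1 member fell, RPL19B, at -0.41 ± 0.15 with an adjusted p of 0.0452 by edgeR, where 9.07% of all genes were lower, and the median of the members was -0.15. In BPL mRNA, 34 members fell, with a median of -0.56, against 19.1% of all genes. Of the other 40 large-subunit genes, 36 fell and 1 rose in BPL mRNA, and of 57 small-subunit genes 47 fell. When libraries were scaled by their totals alone, 7 members fell in BPL footprints and 18 in BPL mRNA. DESeq2 called 3 lower in BPL footprints and 38 in mRNA, and without BPL replicate 2 the number in mRNA was 19. The RPL19B call in BPL footprints was lost without either of its libraries.

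The remaining isolates showed small and mixed changes. In CMP footprints, 2 members fell (7.31% of all genes), RPL16B at -0.59 ± 0.18 and RPL18B at -0.56 ± 0.19. In CMP mRNA, 12 members rose (27.6% of all genes), from 0.29 for RPL4A to 0.94 for RPL22B. With scaling by totals, 0 members fell in CMP footprints and 3 rose in CMP mRNA, without CMP replicate 2 there were 4 that rose in mRNA, and without either CMP library 0 fell in footprints. In CPI footprints, 3 members rose (17.7% of all genes), namely RPL2B, RPL15B and RPL16B, at 0.38 to 0.43, and RPL22B fell, at -1.16 ± 0.37 (12% of all genes). In CPI mRNA, 5 members rose (31.4%) and 5 fell (22.4%). With DESeq2 size factors the split in CPI mRNA was 3 higher and 8 lower, by DESeq2 4 and 9, and with totals CPI footprints had 1 higher and 2 lower. In BAN mRNA, 4 members rose (34.0% of all genes) and 14 fell (33.1%), with totals 1 and 28, by DESeq2 5 and 9, and without BAN replicate 2 and replicate 1 the counts were 1 higher and 9 lower. In BTT mRNA, 2 members rose (32.9%) and 7 fell (19.9%), with totals 6 and 2, with DESeq2 size factors 1 and 14, and by DESeq2 1 and 17. In footprints of BAN, edgeR called 0 members in either direction, with 1 higher and 5 lower at an unadjusted p under 0.05 and 0 by DESeq2. In footprints of BTT, edgeR called 0 as well, with 2 higher at an unadjusted p under 0.05 and 1 higher by DESeq2. Leaving out 1 library of CPI or BTT moved their counts by more than 1.5 times: without CPI replicate 2 there were 0 members higher in CPI mRNA, without CPI replicate 1 there was 1 lower, and without either CPI library 0 were higher in CPI footprints. The RPL22B call in CPI footprints was lost without CPI replicate 1. Without BTT replicate 1 or 2, 4 or 2 members were lower in BTT mRNA.

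**Figure D2:**
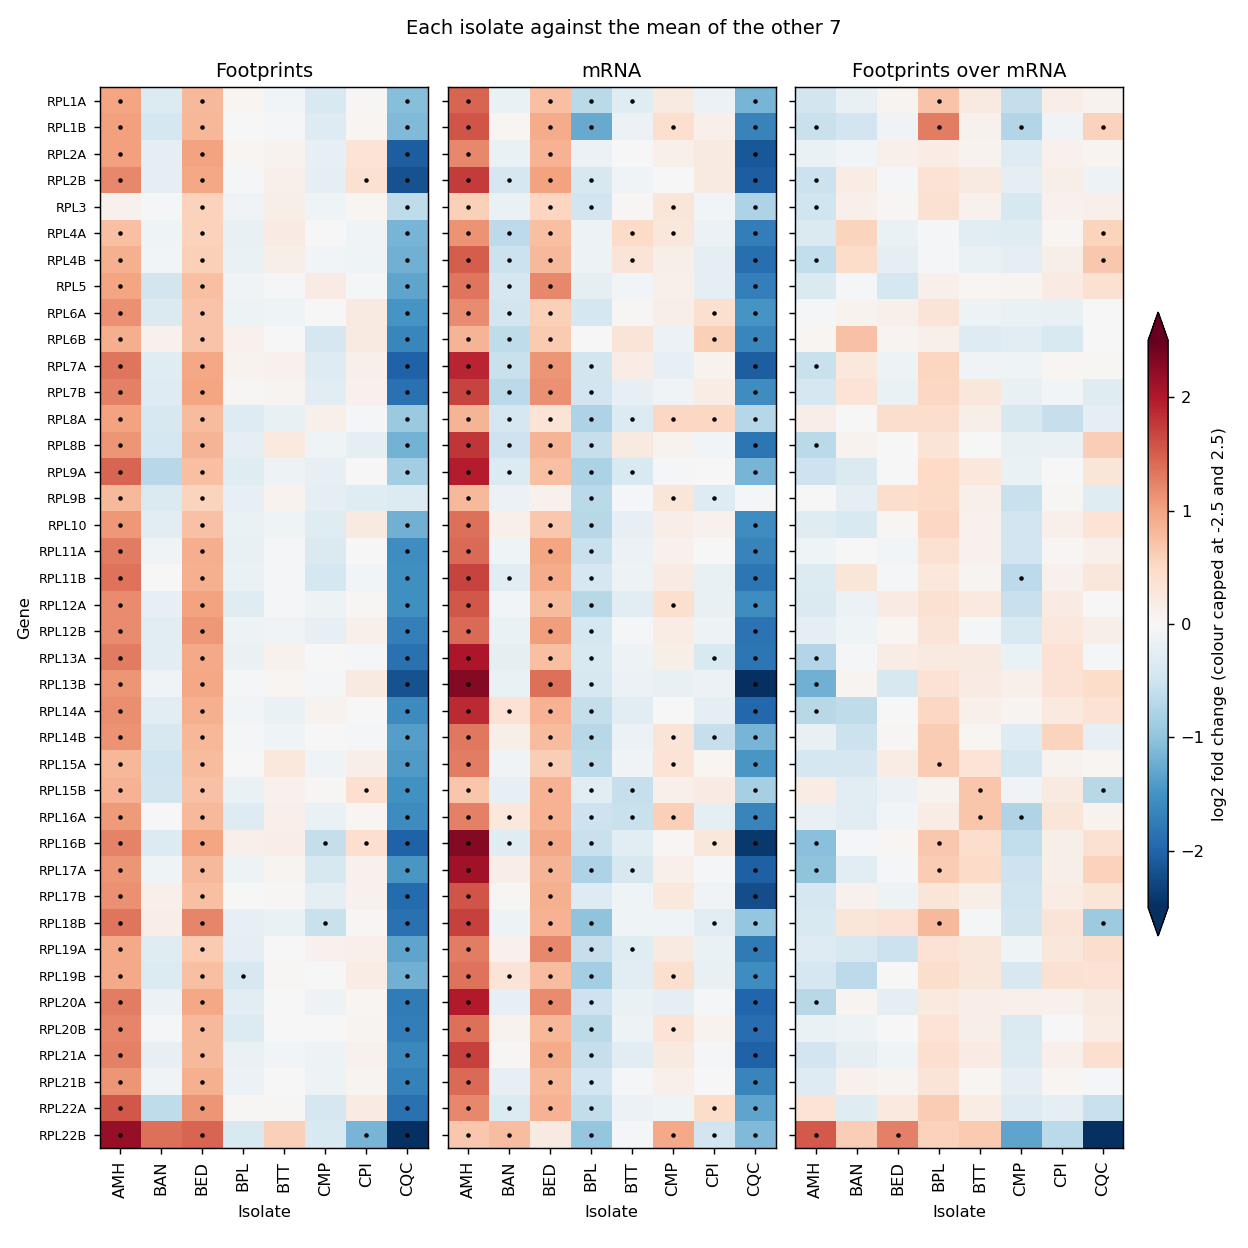
Log2 fold change (colour) of 40 of the 41 genes (rows) in each isolate (columns) against the mean of the other 7, for footprints, mRNA and footprints over mRNA from left to right; a dot marks an edgeR adjusted p under 0.05. AMH and BED are red and CQC is blue in footprints and mRNA for nearly every gene, whereas the ratio shows weak colours, with 12 genes lower in AMH and 6 higher in BPL.

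The single-copy genes have no second copy to share their reads with, so their values need no split between copies. RPL3 (YOR063W, chromosome XV, 444686 to 445849, plus strand, without an intron) encodes a protein that reaches towards the peptidyl transferase centre. In footprints RPL3 had, in CPM (reads scaled to the library total), 1924 and 1767 for AMH, 2353 and 2208 for BAN, 2330 and 2423 for BED, 1773 and 1627 for BPL, 2223 and 2058 for BTT, 2280 and 1874 for CMP, 1771 and 2001 for CPI and 1357 and 1368 for CQC. The mRNA values were 3330 and 2988 for AMH, 1716 and 1545 for BAN, 3161 and 3449 for BED, 2037 and 1749 for BPL, 2599 and 2572 for BTT, 2434 and 2323 for CMP, 1995 and 2178 for CPI and 1249 and 1207 for CQC. The isolates spanned 1.74-fold in RPL3 footprints, the narrowest span of the 41 members, and 2.69-fold in mRNA. CQC was lowest in both assays, and AMH footprints lay inside the range of the other isolates although AMH mRNA was among the highest. RPL3 was called higher in BED in footprints (0.58 ± 0.13) and in mRNA (0.54 ± 0.11). It was lower in CQC, at -0.64 ± 0.15 in footprints and -0.77 ± 0.12 in mRNA. In mRNA RPL3 was also called higher in AMH (0.60 ± 0.11) and CMP (0.30 ± 0.11) and lower in BPL (-0.47 ± 0.12). The CMP and BPL calls were lost in some of the alternatives run.

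RPL5 (YPL131W, chromosome XVI, 303121 to 304014, plus strand, without an intron) encodes the protein that carries 5S ribosomal RNA into the subunit together with RPL11. In footprints RPL5 had 2359 and 2496 for AMH, 1358 and 1448 for BAN, 2070 and 2052 for BED, 1387 and 1281 for BPL, 1518 and 1472 for BTT, 2053 and 1884 for CMP, 1241 and 1553 for CPI and 839 and 559 for CQC. In mRNA it had 1565 and 1793 for AMH, 607 and 390.1 for BAN, 1697 and 1692 for BED, 776 and 742 for BPL, 868 and 799.7 for BTT, 785 and 700.1 for CMP, 604 and 679.8 for CPI and 229 and 248 for CQC. The RPL5 levels of CQC were the lowest in both assays, at a log2 fold change of -1.32 ± 0.18 in footprints and -1.71 ± 0.12 in mRNA. AMH rose by 0.98 ± 0.14 in footprints and 1.33 ± 0.09 in mRNA, and BED by 0.75 ± 0.14 and 1.20 ± 0.09. In BAN, RPL5 fell in mRNA (-0.41 ± 0.11) and had -0.46 ± 0.19 in footprints, which did not pass.

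RPL10 (YLR075W, chromosome XII, 282927 to 283592, plus strand, without an intron) encodes a protein near the catalytic centre whose loading precedes the release of the export factor Nmd3. In footprints RPL10 had 2562 and 2933 for AMH, 1658 and 1665 for BAN, 2197 and 2114 for BED, 1362 and 1327 for BPL, 1580 and 1468 for BTT, 1516 and 1533 for CMP, 1565 and 1902 for CPI and 876 and 719 for CQC. The mRNA values were 3004 and 3397 for AMH, 1363 and 1120 for BAN, 2223 and 2326 for BED, 1131 and 971 for BPL, 1408 and 1421 for BTT, 1304 and 1460 for CMP, 1353 and 1563 for CPI and 491 and 477 for CQC. RPL10 rose in AMH by 1.09 ± 0.13 in footprints and 1.39 ± 0.10 in mRNA, and was lower in CQC, at -1.21 ± 0.17 and -1.55 ± 0.13. RPL10 was also called higher in BED, in footprints and in mRNA (0.67 ± 0.11 in mRNA). Its BPL libraries were lower in mRNA (-0.69 ± 0.12) and had -0.16 ± 0.15 in footprints, which did not pass. The libraries of AMH did not overlap those of the other isolates in RPL10 footprints or mRNA.

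**Figure D3:**
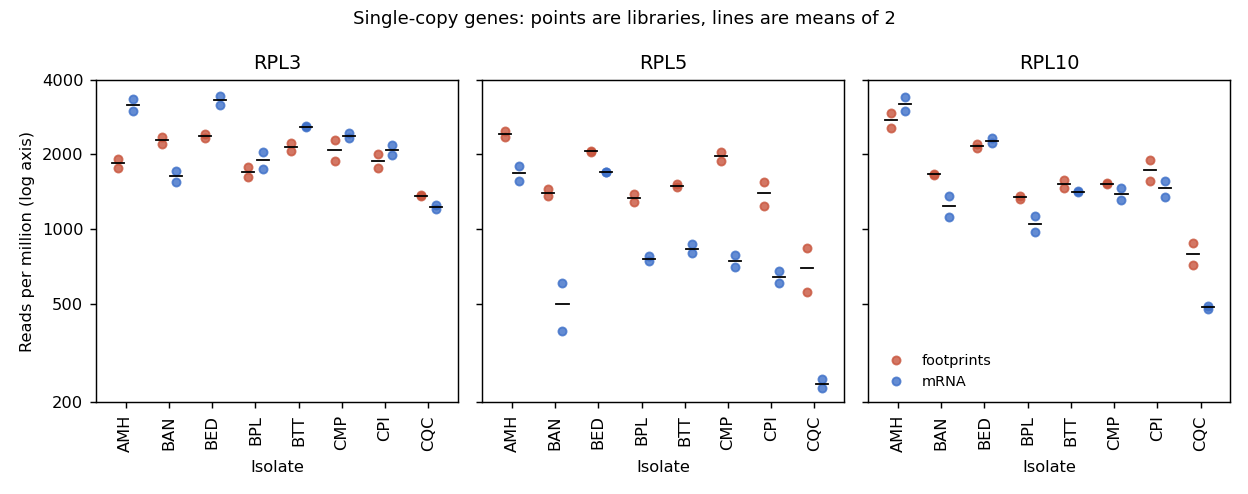
Level in CPM (log axis) of the single-copy genes RPL3, RPL5 and RPL10 in each isolate, footprints left of mRNA; points are libraries and lines are means of 2. RPL3 footprints stay between 1357 and 2423 over all libraries, whereas RPL5 mRNA runs between 229 and 1793.

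The members with the largest called change in mRNA, each taken at its furthest isolate, had it in CQC, where they fell. RPL13B and RPL16B also rose in AMH mRNA, at 2.29 ± 0.09 and 2.29 ± 0.09. RPL13B (YMR142C, chromosome XIII, 550206 to 551207, minus strand, with an intron), the B copy of a pair described further on, fell in mRNA with a log2 fold change of -2.64 ± 0.14 (SE, edgeR adjusted p = 3.72e-10). In footprints RPL13B had, in CPM, 1208 and 1353 for AMH, 821 and 905 for BAN, 1179 and 1147 for BED, 670.2 and 687 for BPL, 798 and 752 for BTT, 902 and 762 for CMP, 786 and 832 for CPI and 177 and 236 for CQC. In mRNA it had 1256 and 1447 for AMH, 331 and 195 for BAN, 846 and 844 for BED, 312 and 297 for BPL, 380.4 and 333 for BTT, 274 and 276 for CMP, 296 and 317 for CPI and 58.2 and 63.9 for CQC. The CQC libraries lay below those of the other isolates in both assays, and AMH mRNA lay above them. The span from AMH to CQC was 6.21-fold in RPL13B footprints and 22.1-fold in mRNA, the widest mRNA span of a member.

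RPL16B (YNL069C, chromosome XIV, 493956 to 495001, minus strand, with an intron), a homologue of human RPL13A, fell in CQC mRNA with a log2 fold change of -2.41 ± 0.13 (adjusted p = 4.88e-10). In footprints RPL16B had 1351 and 1491 for AMH, 679 and 869 for BAN, 1110 and 1263 for BED, 769 and 737 for BPL, 861 and 831 for BTT, 613 and 601 for CMP, 842 and 1004 for CPI and 261 and 199.6 for CQC. The mRNA values were 1880 and 2218 for AMH, 431 and 294 for BAN, 986 and 1004 for BED, 428 and 413 for BPL, 519 and 498 for BTT, 469 and 476 for CMP, 561 and 639.7 for CPI and 104 and 110.2 for CQC. CQC was again below every other isolate in both assays. RPL17B (YJL177W, chromosome X, 90786 to 91657, plus strand, with an intron), whose protein lines the exit tunnel, fell in CQC mRNA with a log2 fold change of -2.22 ± 0.15 (adjusted p = 5.93e-09). In footprints RPL17B had 613 and 662 for AMH, 489.5 and 434 for BAN, 486 and 496 for BED, 345 and 316 for BPL, 385 and 361 for BTT, 351 and 371 for CMP, 337 and 389.6 for CPI and 124 and 109 for CQC. In mRNA it had 806 and 986 for AMH, 391 and 215 for BAN, 645 and 649 for BED, 343 and 316 for BPL, 387 and 364 for BTT, 346 and 389.7 for CMP, 303 and 350.3 for CPI and 77.4 and 83.8 for CQC. The lowest RPL17B library outside CQC held 316 CPM in footprints and 215 in mRNA, so CQC did not overlap the other isolates.

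Translation efficiency (TE) is the level of a gene's footprints over that of its mRNA, and was tested through the term in which isolate and assay interact. TE of an A or B copy depends on how reads that match both copies were counted, which is not given in the sources used here. TE of the summed copies does so too if such reads were dropped or counted for each copy. TE differed among isolates for 19 of the 41 members, where 29.2% of all 5337 genes tested did, and for 9 of the 22 proteins with copies summed, where 29.1% did. Those proteins were RPL1, RPL4, RPL10, RPL13, RPL15, RPL16, RPL17, RPL19 and RPL22. The count of members was 12 without BPL replicate 2 or without either BTT pair of libraries, 29 with scaling by totals and 33 by DESeq2.

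In AMH, TE fell for 12 members (6.01% of all genes) and rose for 1, RPL22B (3.49% of all genes), and the median of the members was -0.38 where that of all genes was -0.01. The 12 were RPL1B, RPL2B, RPL3, RPL4B, RPL7A, RPL8B, RPL13A, RPL13B, RPL14A, RPL16B, RPL17A and RPL20A, with RPL13B the furthest at -1.20 ± 0.17 (adjusted p = 1.95e-05). The number was 25 with scaling by totals, 5 without AMH replicate 1 and 3 without AMH replicate 2. RPL13B had 1208 and 1353 CPM in AMH footprints, close to its 1256 and 1447 in AMH mRNA, whereas in the other isolates footprints were above mRNA in each pair of libraries.

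The median TE contrast in BPL was 0.38 for the members and 0.10 for all genes. It was 0.53 for the other 40 large-subunit genes and 0.41 for 57 small-subunit genes, so the shift was not particular to the members. In BPL, TE rose for 6 members, RPL1A, RPL1B, RPL15A, RPL16B, RPL17A and RPL18B (1.87% of all genes). RPL1B (YGL135W, chromosome VII, 254641 to 255294, plus strand, without an intron), the more abundant copy of the L1 stalk protein, was the furthest at 1.27 ± 0.18 (adjusted p = 7.66e-05). In footprints RPL1B had, in CPM, 1675 and 2046 for AMH, 995 and 1159 for BAN, 1551 and 1696 for BED, 1072 and 1043 for BPL, 1134 and 1104 for BTT, 1068 and 1072 for CMP, 953 and 1260 for CPI and 622 and 577 for CQC. The mRNA values were 1127 and 1331 for AMH, 471 and 347 for BAN, 879.5 and 921 for BED, 263 and 241 for BPL, 516 and 486 for BTT, 551 and 549 for CMP, 467 and 546 for CPI and 154 and 153 for CQC. In BPL the footprints of RPL1B lay inside the range of BAN, BTT, CMP and CPI, whereas its mRNA lay below all isolates but CQC. With scaling by totals, or without either BPL pair of libraries, 1 member was higher in BPL, and by DESeq2 15 were.

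The other isolates had few TE calls. RPL22B rose in BED (1.25 ± 0.32, against 2.30% of all genes), and RPL15B and RPL16A rose in BTT (0.69 ± 0.15 and 0.70 ± 0.17, against 1.16%). RPL1B, RPL11B and RPL16A fell in CMP, at -0.74 ± 0.19, -0.65 ± 0.19 and -0.75 ± 0.20 (1.78% of all genes). In CQC, RPL1B, RPL4A and RPL4B rose, by 0.57, 0.56 and 0.68 (8.24% of all genes), and RPL15B and RPL18B fell, at -0.69 ± 0.20 and -0.90 ± 0.21 (2.49%). By DESeq2, 5 members were higher in BTT, 10 lower in CMP and 5 higher in CQC. The CQC split was 12 higher and 0 lower with scaling by totals, a setting that shifted the CQC contrast of every gene by 0.23 on the log2 scale. In BED, BTT and CMP, and for the members higher in CQC, no call held without either pair of that isolate's libraries, and of the members lower in CQC 0 held without replicate 1 and 1 without replicate 2. EdgeR called 0 members in BAN, with 3 higher and 4 lower at an unadjusted p under 0.05 and 3 lower by DESeq2. It called 0 in CPI, with 4 higher and 1 lower at an unadjusted p under 0.05, and 3 higher and 1 lower by DESeq2.

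Across the 8 isolates the members had more footprints for their mRNA than the median gene. The mean log2 ratio of footprints to mRNA, scaled within each assay, was above 0 for 33 members (19.8% of all genes) and below 0 for 4 (60.5%), with a median of 0.60 for the members and -0.61 for all genes. The median was 0.23 over the other 40 large-subunit genes and 0.13 over 57 small-subunit genes. It was 0.69 for the 19 A copies, 0.56 for the 19 B copies and 0.22 for the single-copy genes. The 24 members with an intron had a median of 0.61 and the 17 without 0.59. The highest ratios were those of RPL1A (1.99 ± 0.06, SE), RPL6B (1.98 ± 0.08) and RPL4B (1.67 ± 0.06). The 4 below 0 were RPL3 (-0.17 ± 0.05), RPL15A (-0.15 ± 0.05), RPL19B (-0.20 ± 0.06) and RPL22B (-1.04 ± 0.16). The tests were against 0, which follows from the scaling within each assay and is not the level of the median gene. RPL3, RPL15A and RPL19B lay above the median of all genes, and RPL22B below it. RPL12B, RPL17B, RPL19A and RPL20B, at -0.06 to 0.12, did not pass. Footprint and mRNA libraries were prepared by different methods, so differences between the preparations and ribosome load cannot be told apart in this mean ratio. The ratios of A and B copies also carry the uncertain split of reads between the copies, whose part was not tested.

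Because a subunit holds a single copy of each protein, levels were also set side by side per kilobase of coding sequence, with both copies summed. In footprints the highest mean level was that of RPL11, at 3670 reads per kilobase (RPKM, scaled to the library total like CPM), followed by RPL1 at 3650, and the lowest were those of RPL3 at 1730 and RPL22 at 1500. In mRNA the highest was RPL19, at 2970, and the lowest were RPL8 at 1020 and RPL6 at 773. By these sums, the 22 proteins were closer to each other in footprints than in mRNA. The SD over the 22 of the log2 level was 0.46 in AMH footprints against 0.65 in AMH mRNA, 0.45 against 0.72 in BAN, 0.39 against 0.60 in BED, 0.36 against 0.56 in BPL, 0.35 against 0.54 in BTT, 0.40 against 0.62 in CMP, 0.36 against 0.55 in CPI, and 0.55 against 0.70 in CQC. It was smaller in footprints in 8 of 8 isolates. The highest protein exceeded the lowest by 2.42-fold to 4.98-fold within a footprint library and by 2.79-fold to 6.73-fold within an mRNA library. How reads that match both copies were counted is not given, so the sums of the 19 pairs are uncertain too. Reads dropped, or counted for each copy, would change those sums but not the levels of RPL3, RPL5 and RPL10. The part of that step in the SD was not tested.

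RPL1, RPL4, RPL7 and RPL6 stood further up in footprints than in mRNA. RPL1, the L1 stalk protein, lay 0.47 above the median of the 22 on the log2 scale in footprints and 0.48 below it in mRNA. RPL4, whose extension lines the exit tunnel, lay 0.37 above in footprints and 0.54 below in mRNA. RPL7 lay 0.28 above and 0.63 below, and RPL6 0.24 below in footprints and 1.26 below in mRNA. RPL3 went the other way, 0.56 below the median in footprints and 0.22 above in mRNA, as did RPL19, 0.04 below in footprints and 0.64 above in mRNA. RPL22, a protein that yeast can live without, was low in both, 0.94 below in footprints and 0.76 below in mRNA. The 22 values of a library share its depth and preparation, so they are a description with no test. RPL3, RPL5 and RPL10 are single-copy, whereas the other levels are pair sums that carry the uncertain counting of shared reads. The part of that counting in these positions, that of RPL3 included, was not tested.

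**Figure D4:**
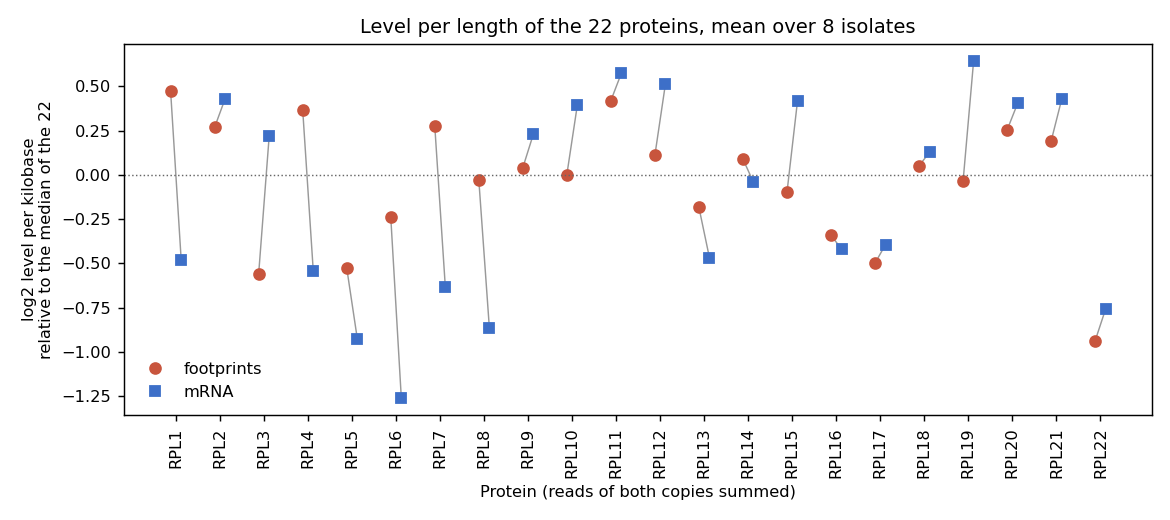
Log2 level per kilobase of each of the 22 proteins (both copies summed, mean over 8 isolates) relative to the median of the 22, footprints as circles and mRNA as squares. RPL1, RPL4, RPL6, RPL7 and RPL8 lie higher in footprints than in mRNA, and RPL3, RPL15 and RPL19 lie lower.

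The A and B copies did not share their pair's reads equally. In footprints the A copy held more reads than the B copy in 16 of 16 libraries for a few pairs, among them RPL15, RPL17 and RPL22, and in 0 of 16 for RPL1, RPL2, RPL12, RPL13, RPL16 and RPL20. In mRNA it held more in 16 of 16 libraries for a few pairs, among them RPL6, RPL15 and RPL22, and in 0 of 16 for RPL1, RPL2, RPL12, RPL16, RPL19 and RPL20. The mean share of the A copy lay between 45% and 55% for 11 pairs in footprints and for 7 in mRNA. It was nearer to equal in footprints than in mRNA for 15 of the 19 pairs. The copies of a pair are nearly identical, and how reads that match both were counted is not given in the sources used here, so each share is uncertain and the part of that step in it was not tested.

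The share of the A copy differed among isolates in mRNA for 19 of 19 pairs at an unadjusted p under 0.05 (permutation F test over libraries, 100000 resamples, smallest possible p of 1e-05). It did so in footprints for 7 pairs, and in the footprint-to-mRNA ratio for 14. For this test the ratio was taken between libraries with the same replicate number, a match that the labels do not give. The permutation p-values for the ratio given below rest on that match. A limma fit over the 61 coding gene pairs of the genome whose names end in A and B, chosen after the data were seen and adjusted over those pairs, called 9 of the 19 in footprints (54.1% of the 61), 19 in mRNA (98.4%) and 18 in the ratio (83.6%). The 61 include the 19 and other ribosomal protein pairs, so their shares are no background of unrelated genes. The range of the A share over isolates had a median of 5.6 percentage points in footprints and 12.3 in mRNA. Without BAN replicate 1 or 2 the count in footprints was 11 pairs.

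Averaged over isolates, the balance between copies was not the same in footprints as in mRNA for 15 pairs (exact sign-flip test over 8 isolates, unadjusted p under 0.05, smallest possible 0.00781). The A share was higher in footprints for 9 of them and lower for 6. The same limma fit called 17 of the 19, against 91.8% of the 61 pairs. Wide gaps in log2 of A over B were those of RPL22, at 1.77 ± 0.97 (SD over 8 isolates), and RPL20, at 1.62 ± 0.25, both higher in footprints, and that of RPL15, at -1.68 ± 0.43, lower in footprints, each with the same sign in 8 of 8 isolates and an exact p of 0.00781.

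The RPL9 pair had the widest range of A share over isolates in mRNA, 33.5 points. RPL9A (YGL147C, chromosome VII, 227754 to 228329, minus strand, without an intron) and RPL9B (YNL067W, chromosome XIV, 499681 to 500256, plus strand, without an intron) encode a protein near the site where elongation factors bind. The RPL9A share of the pair's footprints was 52.9% and 54.5% for AMH, 39.4% and 39.0% for BAN, 47.3% and 47.2% for BED, 42.9% and 42.5% for BPL, 40.7% and 42.0% for BTT, 46.5% and 42.3% for CMP, 48.2% and 49.5% for CPI and 35.3% and 37.3% for CQC. In mRNA its share was 65.7% and 67.1% for AMH, 49.7% and 43.1% for BAN, 57.7% and 60.4% for BED, 48.0% and 47.1% for BPL, 43.4% and 45.8% for BTT, 44.9% and 43.4% for CMP, 53.3% and 55.8% for CPI and 32.9% and 33.0% for CQC. RPL9A was the larger copy in AMH, and RPL9B in CQC, in both assays and in each library. Over isolates RPL9A spanned 7.44-fold in mRNA, and RPL9B 2.13-fold, the narrowest mRNA span of the 41 members. The permutation p was 3e-05 in footprints, 5e-05 in mRNA and 0.00028 for the ratio, and the A share was lower in footprints in 6 of 8 isolates (exact p = 0.0469).

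RPL8 was the next widest pair in mRNA, at 29.9 points. RPL8A (YHL033C, chromosome VIII, 35255 to 36025, minus strand, without an intron) and RPL8B (YLL045C, chromosome XII, 47859 to 48629, minus strand, without an intron) encode a protein needed in early steps of subunit assembly. The RPL8A share of footprints was 46.4% and 47.5% for AMH, 48.3% and 51.2% for BAN, 48.3% and 47.3% for BED, 46.6% and 48.3% for BPL, 43.2% and 41.6% for BTT, 51.1% and 53.4% for CMP, 52.1% and 50.7% for CPI and 50.9% and 55.2% for CQC. Its share of mRNA reads was 34.3% and 33.4% for AMH, 49.6% and 48.4% for BAN, 40% and 39.6% for BED, 45.2% and 43.7% for BPL, 40.8% and 37.0% for BTT, 55.6% and 52.4% for CMP, 55.2% and 57.1% for CPI and 62.6% and 65.1% for CQC. In mRNA, AMH lay lowest and CQC highest, with no overlap with the other isolates. In footprints BTT lay lowest, with permutation p = 0.00289, against 2e-05 in mRNA. The shift between the assays had no common sign, 5 of 8 isolates sharing that of the mean (exact p = 0.609).

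RPL22 had the third widest range, 21.9 points in mRNA. RPL22A (YLR061W, chromosome XII, 263194 to 263948, plus strand, with an intron) supplies most of the protein, and the Rpl22 protein is known to inhibit splicing of the RPL22B transcript (YFL034C-A, chromosome VI, 64243 to 64932, minus strand, with an intron). The RPL22A share of footprints was 87.6% and 89.5% for AMH, 72.4% and 90% for BAN, 90.5% and 90% for BED, 93.5% and 93.7% for BPL, 88.8% and 89.1% for BTT, 88.9% and 97.1% for CMP, 97.6% and 95.3% for CPI and 100% and 95.1% for CQC. In mRNA its share was 81.5% and 83.6% for AMH, 62.7% and 65.2% for BAN, 84.7% and 82.6% for BED, 79.6% and 82.8% for BPL, 75.3% and 77.9% for BTT, 64.6% and 65.0% for CMP, 85.8% and 86.0% for CPI and 75.6% and 74.7% for CQC. BAN and CMP had the lowest mRNA shares and did not overlap the other 6 isolates. The A share was higher in footprints than in mRNA in 8 of 8 isolates. Among isolates the permutation p was 8e-05 in mRNA, 0.05 in footprints and 0.0665 for the ratio.

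RPL22B itself was the scarcest member in footprints. In footprints RPL22B had, in CPM, 109 and 122 for AMH, 126 and 36.2 for BAN, 72.4 and 76.4 for BED, 26.6 and 25.5 for BPL, 55.5 and 47.6 for BTT, 48.2 and 10 for CMP, 9.12 and 23.9 for CPI and 0 and 7.26 for CQC. In mRNA it had 97.5 and 119.8 for AMH, 128 and 71.8 for BAN, 85.6 and 96.1 for BED, 55.6 and 37.9 for BPL, 86.5 and 77.0 for BTT, 129.9 and 104 for CMP, 49.9 and 57.8 for CPI and 36.3 and 31.1 for CQC. Footprints of RPL22B rested on few reads in BAN (8 and 1), CMP (7 and 1) and CQC (0 and 2). The count of 0 in CQC replicate 1 allows up to 12 CPM (3 reads), and RPL22B held 2.74% of the pair's footprints over both CQC libraries, with an exact binomial 95% interval of 0.33% to 9.55%. Both limits cover counting error only. TE of RPL22B rose in AMH by 1.53 ± 0.31 (adjusted p = 0.00204), a call lost without AMH replicate 2. The mean it was compared with includes BAN, CMP and CQC with those few reads, and so does that for its rise in BED. In CQC the TE of RPL22B was -2.63 ± 0.90, with an adjusted p of 0.0592.

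In RPL13, the fourth pair by range (21.5 points in mRNA), the A copy (YDL082W, chromosome IV, 308424 to 309388, plus strand, with an intron) was the larger in CQC mRNA and the smaller in BED mRNA. The RPL13A share of footprints was 45.1% and 42.5% for AMH, 40.9% and 32.4% for BAN, 39.9% and 40.5% for BED, 40.3% and 37.1% for BPL, 42.1% and 40.9% for BTT, 41% and 41.1% for CMP, 36.6% and 37.2% for CPI and 48.2% and 43.0% for CQC. Its share of mRNA reads was 45.9% and 45.8% for AMH, 47.6% and 49.3% for BAN, 40% and 41.3% for BED, 50.8% and 49.1% for BPL, 50.2% and 50.5% for BTT, 55.4% and 54.3% for CMP, 45.6% and 46.7% for CPI and 62.3% and 62.1% for CQC. RPL13B was the larger copy in 16 of 16 footprint libraries, against 9 of 16 mRNA libraries. The shift towards RPL13B in footprints held in 8 of 8 isolates, at -0.54 ± 0.32 in log2 of A over B (SD, exact p = 0.00781). Among isolates the permutation p was 0.0741 in footprints, 1e-05 in mRNA and 0.00795 for the ratio.

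The pairs with the narrowest range in mRNA were RPL15, at 5.8 points, and RPL11, at 6.9. RPL15A (YLR029C, chromosome XII, 201976 to 202590, minus strand, without an intron) is the copy that cells need, and RPL15B (YMR121C, chromosome XIII, 509734 to 510348, minus strand, without an intron) is dispensable. The RPL15A share of footprints was 77.3% and 76.7% for AMH, 80% and 72.5% for BAN, 76.8% and 79.4% for BED, 79.7% and 78.6% for BPL, 78.5% and 79.6% for BTT, 76.0% and 75.8% for CMP, 73.5% and 75.0% for CPI and 81.5% and 75.8% for CQC. In mRNA its share was 93.8% and 94.1% for AMH, 92.3% and 91.9% for BAN, 90.5% and 90.1% for BED, 89.9% and 89.2% for BPL, 93.3% and 94.0% for BTT, 92.2% and 92.8% for CMP, 91.0% and 90.8% for CPI and 87.5% and 88.7% for CQC. Each footprint library lay below each mRNA library. Per kilobase, RPL15B averaged 566 RPKM in footprints and 198 in mRNA. The permutation p among isolates was 0.504 in footprints and 1e-05 in mRNA.

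RPL11A (YPR102C, chromosome XVI, 731224 to 731748, minus strand, without an intron) and RPL11B (YGR085C, chromosome VII, 648383 to 648907, minus strand, without an intron) encode the other protein of the 5S particle. The RPL11A share of footprints was 48.6% and 50.3% for AMH, 49.5% and 47.8% for BAN, 50.9% and 50.6% for BED, 50.8% and 49.3% for BPL, 50% and 51.0% for BTT, 53.5% and 49.3% for CMP, 52.4% and 51.3% for CPI and 50% and 50% for CQC. Its share of mRNA reads was 47.0% and 46.7% for AMH, 54.1% and 53.3% for BAN, 51.7% and 52.1% for BED, 49.5% and 48.6% for BPL, 50% and 51.7% for BTT, 49.0% and 50.3% for CMP, 53.4% and 54.2% for CPI and 53.2% and 52.8% for CQC. The copies stayed near equal in both assays, with A above B in 8 of 16 footprint libraries and 10 of 16 mRNA libraries. AMH mRNA lay below the other isolates. The mean shift between the assays was -0.04 ± 0.15 in log2 of A over B (SD over 8 isolates, exact p = 0.422).

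RPL1, chosen after its values were seen, fell into separate levels in mRNA. RPL1A (YPL220W, chromosome XVI, 135790 to 136443, plus strand, without an intron) held the smaller share in each library. The RPL1A share of footprints was 47.2% and 47.5% for AMH, 49.2% and 49.2% for BAN, 47.5% and 47.4% for BED, 48.3% and 48.3% for BPL, 47.3% and 47.5% for BTT, 47.5% and 46.8% for CMP, 47.9% and 47.0% for CPI and 47.6% and 49.4% for CQC. In mRNA its share was 34.1% and 34.1% for AMH, 34.2% and 31.7% for BAN, 33.5% and 33.3% for BED, 44.4% and 44.4% for BPL, 33.8% and 33.8% for BTT, 33.1% and 33.5% for CMP, 32.2% and 32% for CPI and 43.4% and 43.4% for CQC. In mRNA, BPL and CQC lay at 43.4% to 44.4% and the other 6 isolates at 31.7% to 34.2%, with nothing between. In footprints the libraries stayed between 46.8% and 49.4%, and the range over isolates was 2.1 points, the narrowest of the 19 pairs.

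A further 11 pairs are given by their mean A share over the isolates. RPL2A, of a protein that helps to shape the catalytic centre, held 46.9% of its pair's footprints and 42.4% of its mRNA reads. RPL4A held 50.2% of footprints and 55.3% of mRNA reads, and RPL7A held 52.9% and 55.3%. RPL6A held 54.8% of footprints and 64.6% of mRNA reads, with a gap of up to 22.7 points between the footprint libraries of an isolate. RPL12A, of the stalk base, held 42.5% of footprints and 38.2% of mRNA reads, and RPL14A held 52.7% and 45.2%. RPL16A held 32.6% of footprints and 26.5% of mRNA reads, and RPL17A held 61.4% and 47.4%, so that on average RPL17A was the larger copy in footprints and the smaller in mRNA. RPL19A held 46.5% and 41.2%, RPL20A held 45.5% and 21.7%, and RPL21A held 51.3% of footprints and 51.6% of mRNA reads. Of these 11, the exact test of footprints against mRNA gave a p of 0.00781 for RPL2, RPL4, RPL6, RPL12, RPL16, RPL17 and RPL20, of 0.0156 for RPL14 and RPL19, of 0.0547 for RPL7 and of 0.812 for RPL21.

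**Figure D5:**
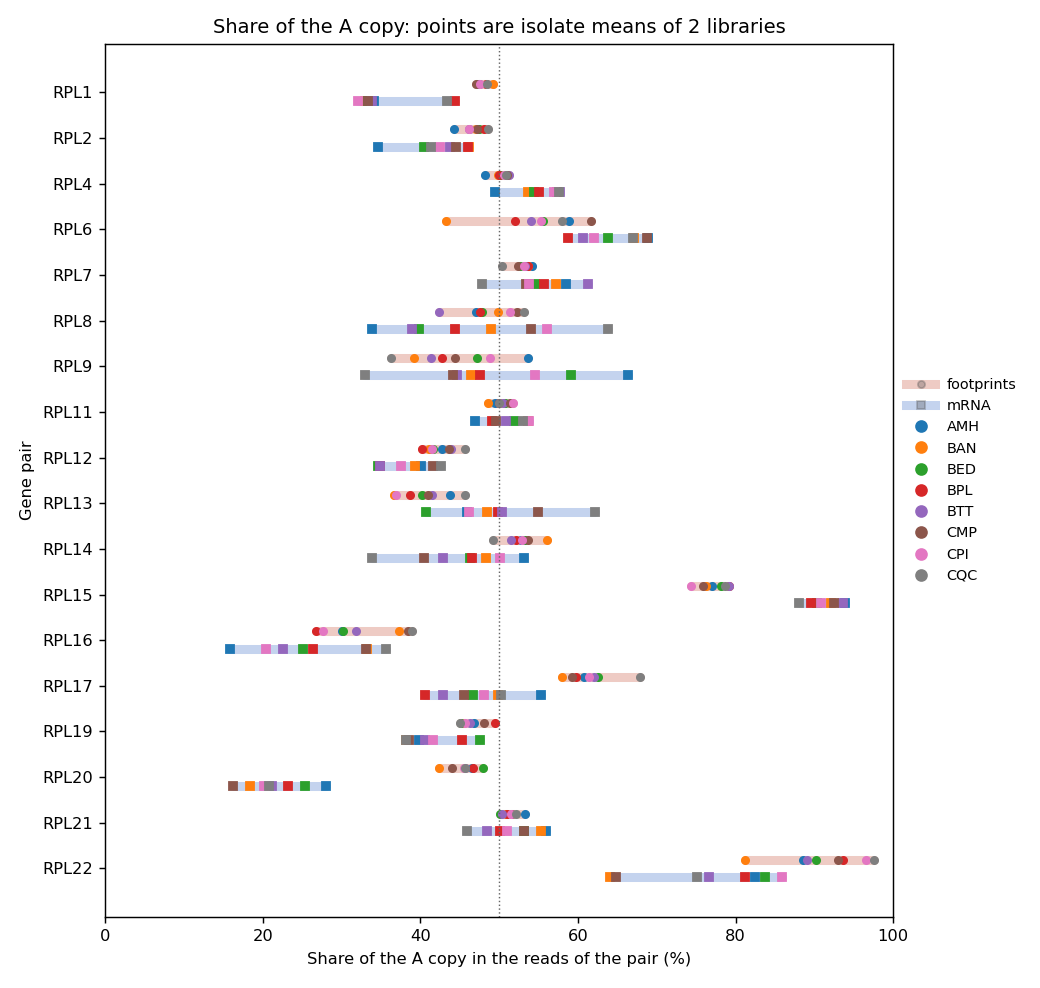
Share of the A copy in the reads of 18 of the 19 pairs (%, horizontal axis), footprints as circles above and mRNA as squares below; each point is an isolate mean of 2 libraries, bars span the isolates and the dotted line marks equal shares. Bars are shorter in footprints for most pairs, and RPL1, RPL15, RPL20 and RPL22 are displaced between the assays.

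The other ribosomal protein genes were also higher in AMH and lower in CQC. The 40 further large-subunit genes (RPL23 to RPL43 and the stalk proteins) rose in AMH for 40 of 40 in footprints and in mRNA, and fell in CQC for 40 of 40 in both. Of 57 small-subunit genes, 55 rose in AMH in footprints and 53 in mRNA, and 56 fell in CQC in each. The furthest in mRNA among the large-subunit genes were the stalk gene RPP2A (-2.39), RPL31B (-2.30), RPL36B (-2.22) and RPL24A (-2.21), each in CQC. Those among the small-subunit genes were RPS15 in BED (3.42), and RPS4B (-2.31), RPS7A (-2.26) and RPS22A (-2.25) in CQC.

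Of 11 regulators of these genes, 1 rose and 3 fell in AMH footprints, where 19.9% of all genes were higher and 14% lower, and 2 rose and 6 fell in AMH mRNA, where 33.4% were higher and 30.4% lower. In CQC 5 regulators rose and 1 fell in footprints, where 26.2% of all genes were higher and 23.3% lower, and 9 rose and 1 fell in mRNA, where 35.6% were higher and 37.2% lower. The furthest in mRNA were CRF1, a corepressor, in CPI (3.19), FPR1, a proline isomerase found at these promoters, in CQC (-2.14), DOT6, a repressor of ribosome biogenesis genes, in CQC (1.87) and IFH1, the coactivator, in AMH (-1.83). Of 19 chaperones and assembly factors of the large subunit, 5 rose in AMH footprints, a share near the 19.9% of all genes, and 12 rose and 4 fell in AMH mRNA (33.4% and 30.4% of all genes). In CQC 5 rose and 1 fell in footprints (26.2% and 23.3%), and 8 rose and 2 fell in mRNA (35.6% and 37.2%). In CPI 12 fell in footprints (12% of all genes), and 1 rose and 18 fell in mRNA (31.4% and 22.4%). The furthest in mRNA were REI1 and BUD20, both late cytoplasmic or export factors, in CMP (1.52 and 1.39), RRS1, which helps to install the 5S particle, in AMH (1.38), and ACL4, the chaperone of RPL4, in AMH (1.33).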

How the data were processed

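The authors deposited, for each of the 32 libraries, a table of raw counts for each open reading frame, without normalization, with a second column that, for the members, equals the number of codons with the stop less 10. STAR 2.7.0a, CASAVA 1.8 and the build sacCer3 are named, per the submitters' processing notes. The counting tool, its use of strand, its treatment of reads that match several genes and whether isolates had their own reference were not given in the sources used here, so near-identical copies and overlapping or antisense genes are uncertain. Per the labels' protocols, cells were filtered and lysed, footprints were made with RNase I, and mRNA libraries came from a stranded kit.

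The tables list 6696 open reading frames, of which 6008 matched the R64 gene table; coordinates are of that assembly, counted from 1. The fits used edgeR 4.0.16 (R 4.3.3): a filter on low counts (minimum count 10), TMM within each assay, and a quasi-likelihood F-test adjusted by Benjamini-Hochberg over all genes tested, called at 0.05. TE was the interaction of assay and isolate. Copy shares were tested per pair by permutation F tests over libraries and exact sign flips over isolates (256), on log2 of A over B with 0.5 added to each count, unadjusted, since the protein table that the first plan called for was not used here; a limma 3.58.1 fit was added. DESeq2 1.42.0, other scalings and filters, a replicate block and libraries left out were tried as alternatives. CPM are counts scaled by library totals; RPKM use the deposited length.

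The members and gene lists were chosen with earlier results of these data known. Values were given in every library for the single-copy genes, the 4 pairs with the widest and the 2 with the narrowest range of A share in mRNA, and the 3 members with the largest called change in mRNA and in TE; of each list up to 4 genes with the largest called mRNA change were named. The results of 1 member, and of the copy share of its pair, are not reported here one by one; it stays in the counts and medians.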

Additional observations from a re-analysis of the deposited data

Results flagged for a closer look

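Effects of an isolate that differed between footprints and mRNA, by the test of the interaction itself, were found for 19 of the 41 members and for 9 of the 22 proteins with copies summed, where 29.2% and 29.1% of all features tested differed. The ratio of A to B in footprints relative to mRNA differed among isolates for 14 of the 19 pairs at an unadjusted permutation p under 0.05. That test matched footprint and mRNA libraries by replicate number, which the labels do not tie. The limma fit over 61 pairs named A and B, which include these 19, called 18 of the 19, against 83.6% of the 61. The members with the largest called change in TE, each taken at its furthest called isolate, were RPL22B in AMH, whose TE was 1.53 above the mean of the other 7 isolates on the log2 scale (edgeR adjusted p = 0.00204), RPL1B in BPL, at 1.27 (adjusted p = 7.66e-05), and RPL13B in AMH, at -1.20 (adjusted p = 1.95e-05). Of these, the RPL22B call was lost without AMH replicate 2. Its reference mean includes CQC, BAN and CMP, and RPL22B had 8 and 1 footprint reads in BAN and 7 and 1 in CMP. RPL22B was further still in CQC, at -2.63, on 0 and 2 footprint reads, and did not pass (adjusted p = 0.0592, edgeR).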

How the results depend on the processing

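Leaving out each library in turn moved counts of calls by over 1.5 times in contrasts with few of them and also in BPL mRNA and AMH TE, and counting depth limits footprints of BAN and CMP most. The counts of members and of proteins that differed among isolates in mRNA and footprints, and the members called in AMH and CQC in those assays, moved by less than 1.5 times in the alternatives run. The cause of the shifts that follow was not tested. DESeq2 size factors gave, in mRNA, 9 members lower in BAN, 1 higher and 14 lower in BTT, 3 higher and 8 lower in CPI and, with copies summed, 6 proteins lower in BTT and 3 in CPI; 0 proteins higher in CPI footprints; and in TE 5 members lower in CMP and 5 higher in CQC.

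Scaling by totals shifted the contrast of every gene furthest in BAN, by -0.30 in mRNA, 0.34 in footprints and 0.64 in TE on the log2 scale. It gave, in mRNA, 1 member higher and 28 lower in BAN, 18 lower in BPL, 6 higher and 2 lower in BTT and 3 higher in CMP, with 16 proteins lower in BAN, 10 lower in BPL, 3 higher and 0 lower in BTT and 0 higher in CMP. In footprints it gave 7 members lower in BPL, 0 in CMP and 1 higher and 2 lower in CPI, with 0 proteins higher in CPI. In TE it gave 29 members and 15 proteins that differed among isolates, 25 members and 15 proteins lower in AMH, 0 members higher in BED and BTT, 1 member and 1 protein higher in BPL, 0 members and proteins lower in CMP, and 12 members and 7 proteins higher and 0 members lower in CQC.

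DESeq2 gave, in mRNA, 9 members lower in BAN, 1 higher and 17 lower in BTT and 9 lower in CPI; 3 lower in BPL footprints; and in TE 33 that differed among isolates, 15 higher in BPL, 5 in BTT and 5 in CQC, and 10 lower in CMP. Without the filter on low counts, 0 members were lower in BPL footprints and 1 was higher in CQC TE.

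The replicate numbers were checked as pairs: deviations of libraries with the same number correlated at -0.289 to 0.325 between mRNA libraries, -0.149 to 0.119 between footprint libraries and -0.045 to 0.412 (median 0.12) between assays of 1 isolate. Not every pair was above 0.1 and the labels do not tie the numbers, so the block was not taken as the design of the fits. The permutation test of the A to B ratio between assays did match libraries by number. Some assay pairs of 1 isolate did vary together, and the block raised most TE counts. With replicate block, TE differed for 35 members and 18 proteins; 24 members and 12 proteins were lower in AMH, 4 members higher in BED, 20 members and 12 proteins higher in BPL, 6 members higher in BTT, 7 members and 6 proteins lower in CMP and 5 members and 2 proteins higher in CQC, and 0 proteins were higher in CPI footprints.

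Without 1 library, TE differed for 12 to 23 members, and the A share of footprints for 6 to 11 pairs. In TE, 0 to 1 member was higher in AMH, 3 to 5 members lower in AMH, 0 higher in BED, 1 in BPL, 0 in BTT and 0 in CQC, 0 lower in CMP and 0 to 1 in CQC; 0 to 1 protein was higher in BPL and in CQC, 2 to 3 were lower in AMH and 0 in CMP. In mRNA, 1 to 3 members were higher and 9 to 11 lower in BAN, 19 to 29 lower in BPL, 0 to 1 higher and 2 to 4 lower in BTT, 4 to 9 higher in CMP, and 0 to 3 higher and 1 to 3 lower in CPI. Of proteins in mRNA, 4 to 6 were lower in BAN, 10 to 17 in BPL, 0 in BTT and 0 to 1 in CPI, and 0 to 1 were higher in BTT, 0 to 2 in CMP and 0 in CPI. In footprints, 0 members were lower in BPL and CMP, 0 to 1 in CPI, and 0 members and 0 proteins higher in CPI. With 1 library left in an arm, it is assumed to vary like the other groups. Limma over the 61 pairs without weights called 5 pairs in footprints, 19 in mRNA and 14 in the ratio.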
